A study of Mus musculus with 9 samples.

Results

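The genes described here are the mouse Nduf genes, which encode the nuclear-encoded subunits of mitochondrial complex I and the factors that assemble it. They were chosen by name: every transcript cluster, the unit of the array that stands for 1 gene, whose single gene symbol starts with Nduf. That gave 46 genes of the 19505 genes named on the array, each with 1 cluster, so no choice between clusters was needed. Of the 46, 10 carry an Ndufs or Ndufv symbol (called core below), 28 an Ndufa, Ndufb, Ndufc or Ndufab symbol (accessory) and 8 an Ndufaf symbol (assembly). Ndufb1 and the 7 subunits encoded by mitochondrial DNA were not analysed here.

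White adipose tissue of male mice was measured on 9 Clariom S arrays, which report 1 log2 value per gene, in 3 groups of 3 samples. Wild type mice (C57BL/6JHamSlc-+/+) given vehicle were the lean control. Leptin-deficient obese mice (C57BL/6JHamSlc-ob/ob) received either vehicle or VE, an extract of Vigna umbellata (rice bean), at 100 mg/kg body weight by oral gavage. Dosing lasted 6 weeks (42 days), on standard chow, and the mice were 6 weeks old when they entered the 1 week of acclimatization that came before it. Both obese groups lack functional leptin in the whole body from birth, so the mutation is not limited to fat, and the fat depot that was sampled is not given in the sources used here. There is no wild type group given VE. Nothing in the labels says whether a sample is 1 animal or a pool, so p-values measure the spread between these samples only.

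Complex I is the entry point of the respiratory chain: it oxidises NADH, passes the electrons through a flavin and a row of iron-sulfur clusters to ubiquinone, and pumps protons across the inner mitochondrial membrane. The N module binds NADH, the Q module reduces ubiquinone, and the proximal and distal parts of the membrane arm pump protons. Core subunits carry out the catalysis, accessory (supernumerary) subunits surround and stabilise them, and assembly factors join the modules and then leave. White adipocytes use their mitochondria for the breakdown of fuels and for the supply of citrate and ATP to fat synthesis. Symbols follow these roles only in part. Ndufs4, Ndufs5, Ndufs6 and Ndufv3 look like core genes by name but encode supernumerary subunits, and Ndufa4 is now assigned to complex IV, cytochrome c oxidase.

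The members were bright on the array. Their mean log2 signal over the 9 arrays ran from 5.69 to 14.39, with a median of 10.62, against a median of 6.33 over all 19572 clusters with 1 symbol. Signals of different genes come from different probes and give no order of abundance. Adipocyte markers were high in every group (array medians over 10 genes from 16.01 to 17.99), the cell type that defines the labelled tissue, while the 8 brown or beige adipocyte markers stayed at array medians of 4.52 to 6.16. Other cell types differed between genotypes. The 10 macrophage markers measured had array medians of 7.11 to 8.15 in wild type, 13.28 to 13.95 in ob/ob vehicle and 12.81 to 13.49 in ob/ob VE samples. The 11 epithelial markers had array medians of 8.31 to 10.67 in wild type against 4.22 to 4.90 in both obese groups, and the 5 smooth muscle markers 9.79 to 16.99 against 7.64 to 8.45. In whole tissue, fewer cells of a type and less RNA per cell cannot be told apart.

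**Figure D1:**
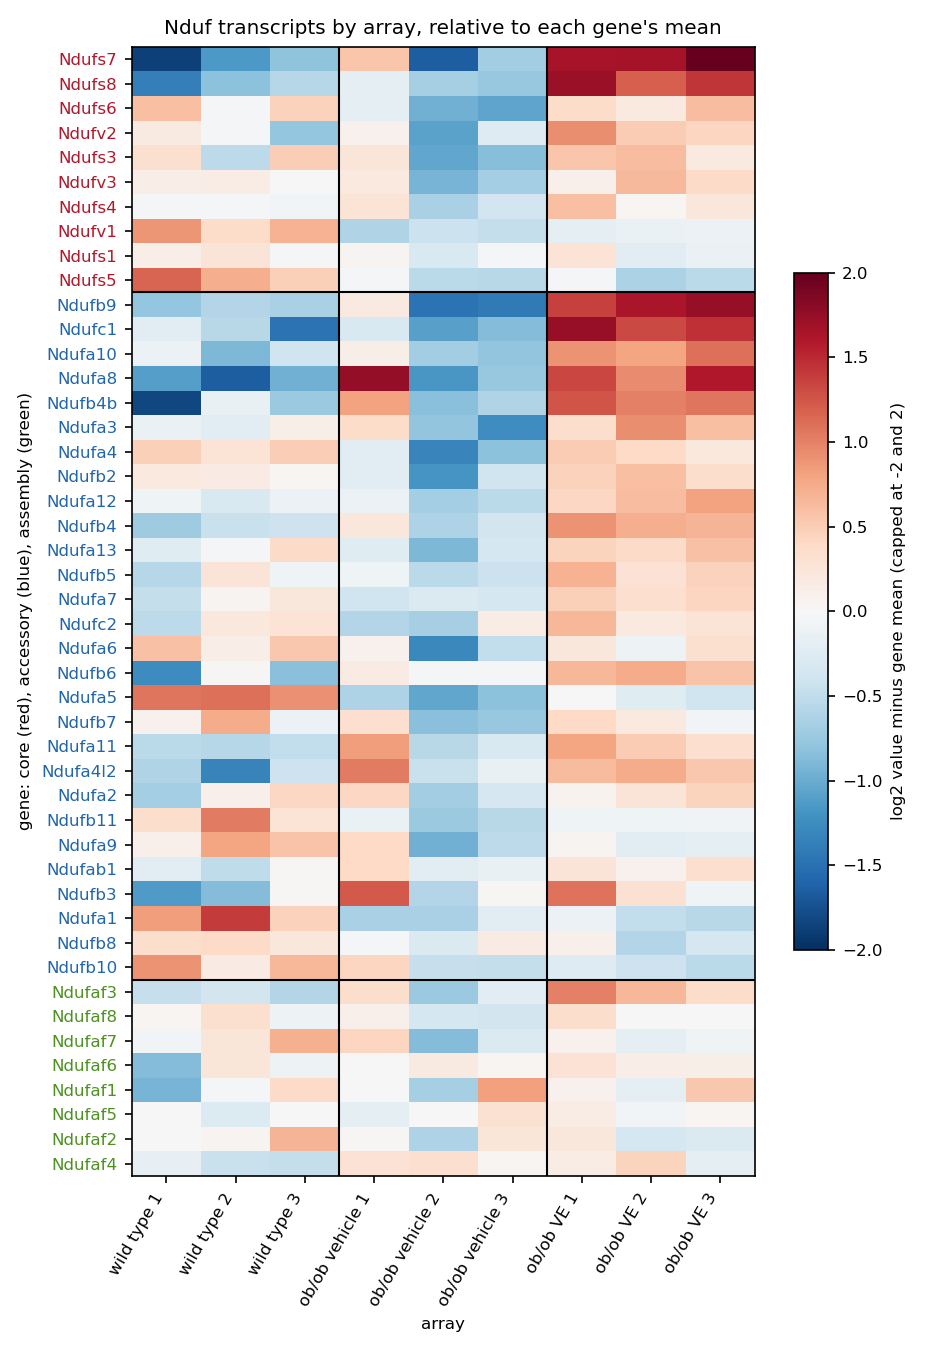
Log2 signal of the 46 Nduf genes (rows, grouped as core, accessory and assembly) on the 9 arrays (columns, by group), shown as the difference from each gene's mean over all arrays. The first ob/ob vehicle array stands apart from the other two of its group, and the 3 ob/ob VE arrays are above the gene mean in most core and accessory rows.

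The first comparison, ob/ob vehicle against wild type vehicle, asks how complex I genes differ in obese adipose tissue. With limma and Benjamini-Hochberg adjustment over all 19572 clusters, 7 of the 46 Nduf genes were lower in ob/ob mice at an adjusted p under 0.05 and 0 were higher. Over all clusters the same test called 5.05% lower and 9.02% higher, so calls in general leaned the other way, and over the 3815 clusters whose mean level lies in the middle range of the members it called 5.85% lower and 17.9% higher. The 7 are Ndufa5, Ndufv1, Ndufa1, Ndufa4, Ndufs5, Ndufb11 and Ndufs6: 3 core and 4 accessory symbols, and 0 assembly factors. At an unadjusted limma p under 0.05, 3 members were higher and 11 lower, 14 of 46 in all, against 15.7% and 12.7% of all clusters, 28.4% in all. Ndufa5, Ndufv1 and Ndufa1 passed whichever single array was left out. They were the 3 that passed without ob/ob vehicle replicate 2, and also without replicate 3, whereas Ndufa4, Ndufs5, Ndufb11 and Ndufs6 did not. Without wild type replicates 1 and 2 together, which have the highest array medians of epithelial and smooth muscle markers, Ndufa5 and Ndufv1 passed. Without wild type replicate 2 alone, Ndufb6, of the membrane arm, was called higher in ob/ob vehicle samples (1.09, limma adjusted p = 0.0193; 0.150 with all arrays, and up to 0.375 over the alternatives).

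Ndufa5, an accessory subunit of the matrix arm beside the Q module, had the lowest adjusted p. Its log2 signal was 11.04, 11.08 and 10.89 in the wild type samples, 9.36, 8.94 and 9.16 in ob/ob vehicle and 9.99, 9.74 and 9.58 in ob/ob VE. Each obese sample of either treatment was below every wild type sample, and each VE sample was above every ob/ob vehicle sample. The ob/ob vehicle minus wild type difference was -1.85 ± 0.22 (SE, n = 3 per group) on the log2 scale, a 3.61-fold lower level (limma adjusted p = 0.000454).

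Ndufv1 is the flavoprotein that binds FMN and NADH. It read 13.77, 13.26 and 13.58 in wild type, 12.28, 12.45 and 12.41 in ob/ob vehicle and 12.70, 12.76 and 12.77 in ob/ob VE samples. Here the 3 groups form separate bands with wild type highest. The ob/ob vehicle minus wild type difference was -1.16 ± 0.21 (SE; limma adjusted p = 0.00567).

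Ndufa1, a small membrane subunit encoded on the X chromosome, fell by 1.41 ± 0.29 (SE) on the log2 scale (limma adjusted p = 0.00926). Its values were 12.17, 12.74 and 11.79 in wild type, 10.68, 10.68 and 11.12 in ob/ob vehicle and 11.21, 10.84 and 10.78 in ob/ob VE samples. The obese groups overlapped each other and neither overlapped wild type. Ndufs5, a supernumerary subunit on the intermembrane-space side, had the same arrangement. It read 12.92, 12.48 and 12.23 in wild type, 11.72, 11.22 and 11.20 in ob/ob vehicle and 11.72, 11.12 and 11.22 in ob/ob VE samples. Its ob/ob vehicle minus wild type difference was -1.16 ± 0.28 (SE; limma adjusted p = 0.0200).

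In the remaining 3, every VE sample was above every ob/ob vehicle sample. The same held in 21 of all 46 members and in 5.77% of all clusters. These 3 genes were picked for low values in the ob/ob vehicle arrays, which both comparisons use. Ndufs6, a zinc-binding supernumerary subunit of the N module, read 11.41, 10.76 and 11.27 in wild type, 10.62, 9.84 and 9.75 in ob/ob vehicle and 11.17, 11 and 11.42 in ob/ob VE samples. It fell by 1.08 ± 0.30 (SE) in ob/ob vehicle samples (limma adjusted p = 0.0367), and the VE values lay within the wild type range apart from the highest. Ndufa4 read 14.86, 14.66 and 14.88 in wild type, 14.16, 13.07 and 13.57 in ob/ob vehicle and 14.90, 14.78 and 14.60 in ob/ob VE samples. The ob/ob vehicle minus wild type difference was -1.20 ± 0.28 (SE; limma adjusted p = 0.0188), and the VE and wild type samples overlapped. Ndufb11, an X-linked subunit of the membrane arm, read 9.74, 10.43 and 9.67 in wild type, 9.26, 8.65 and 8.83 in ob/ob vehicle and 9.31, 9.31 and 9.32 in ob/ob VE samples. The ob/ob vehicle minus wild type difference was -1.03 ± 0.27 (SE; limma adjusted p = 0.0292).

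None of the other 39 members passed the test in this comparison. Of all 46, 29 had a mean difference below 0 and 16 above, with a median of -0.26. The median over all clusters was -0.04, and over the 3815 clusters of like level it was 0.27. The members' median was -0.43 without ob/ob vehicle replicate 1 and -0.12 without replicate 2. In 10 of 46 members every ob/ob vehicle sample was below every wild type sample (13.1% of all clusters), and in 1, Ndufaf4, every one was above (15.7%). The latter count rested on single arrays: it was 8 without ob/ob vehicle replicate 2 (18.9% of all clusters), 3 without wild type replicate 2 (20.2%) and 4 without wild type replicate 3 (22.1%). The members with the most positive moderated statistic were not called. Ndufaf4, which works with Ndufaf3 to build the Q module, differed by 0.58 ± 0.24 (SE; limma adjusted p = 0.139). Ndufa4l2, the hypoxia-inducible relative of Ndufa4, differed by 0.94 ± 0.39 (SE; limma adjusted p = 0.142).

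**Figure D2:**
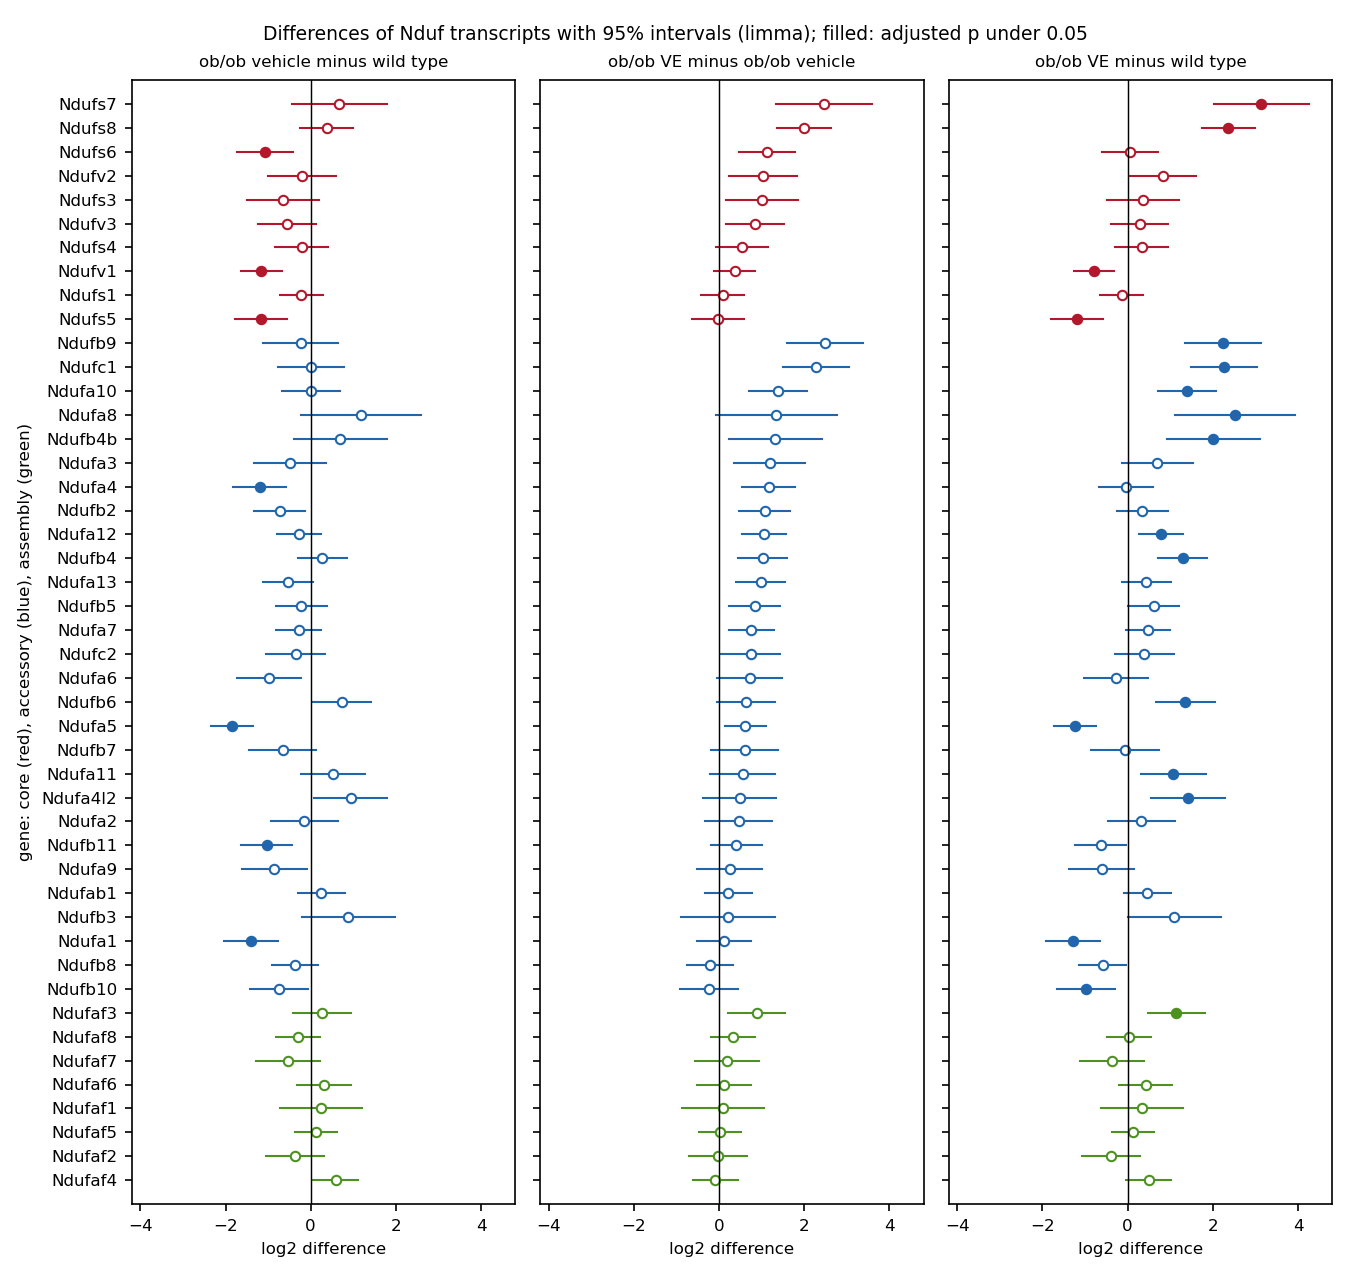
Log2 differences of the 46 Nduf genes in the 3 comparisons (x axis; 0 is no difference), with 95% confidence intervals from the limma fit as bars and filled points for an adjusted p under 0.05. The 7 filled points of ob/ob vehicle against wild type are below 0, no point is filled for VE against ob/ob vehicle, and 13 are filled above and 5 below 0 for VE against wild type.

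Promoter sequence is shown here because some of the genes that fell share a binding motif of nuclear respiratory factor 1 (NRF1), a regulator of many nuclear genes for mitochondrial proteins. RefSeq windows of 250 bases before the start (assembly GRCm38.p6) matched 41 of the 46 members, with 43 windows. The NRF1 motif (GCGC, any base, then TGCGC), searched on both strands, was in 8 of 43 member windows (18.6%) and in 3.74% of all 32851 windows of the same length. It was found for 7 genes: Ndufa5, Ndufs5 and Ndufs6, which are 3 of the 7 that fell in ob/ob mice, Ndufa8, Ndufa11 and Ndufb4, which were higher in VE than in wild type samples, and Ndufaf4, called in neither. The other 4 that fell, Ndufv1, Ndufa1, Ndufa4 and Ndufb11, had no match in their windows. A match describes the letters and is not a measured site. The windows of 4 of these and of Ndufs8, the member with the lowest p under VE and no match, are given from 5′ to 3′ with matches in capitals:
Ndufa5, chr6:24527691-24527940, minus strand: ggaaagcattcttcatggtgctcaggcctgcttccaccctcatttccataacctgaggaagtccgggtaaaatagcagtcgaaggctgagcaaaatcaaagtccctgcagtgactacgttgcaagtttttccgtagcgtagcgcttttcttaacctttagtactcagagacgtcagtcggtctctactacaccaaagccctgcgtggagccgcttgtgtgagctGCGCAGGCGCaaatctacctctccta
Ndufs5, chr4:123718187-123718436, minus strand: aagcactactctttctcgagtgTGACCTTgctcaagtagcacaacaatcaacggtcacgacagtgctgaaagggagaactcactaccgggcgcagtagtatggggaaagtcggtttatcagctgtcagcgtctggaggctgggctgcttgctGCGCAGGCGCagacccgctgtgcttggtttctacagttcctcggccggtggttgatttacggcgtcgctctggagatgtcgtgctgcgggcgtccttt
Ndufs6, chr13:73328483-73328732, minus strand: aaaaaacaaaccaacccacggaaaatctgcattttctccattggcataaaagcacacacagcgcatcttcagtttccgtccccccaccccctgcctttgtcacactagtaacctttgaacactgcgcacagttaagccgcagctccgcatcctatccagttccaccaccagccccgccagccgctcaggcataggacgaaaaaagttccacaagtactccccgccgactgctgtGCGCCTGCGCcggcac
Ndufb4, chr16:37654369-37654618, minus strand: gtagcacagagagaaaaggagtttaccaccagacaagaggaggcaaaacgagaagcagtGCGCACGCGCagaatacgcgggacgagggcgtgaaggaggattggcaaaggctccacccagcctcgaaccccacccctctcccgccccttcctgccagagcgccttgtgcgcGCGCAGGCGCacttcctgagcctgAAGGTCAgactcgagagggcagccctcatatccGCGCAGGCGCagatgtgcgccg
Ndufs8, chr19:3912775-3913024, minus strand: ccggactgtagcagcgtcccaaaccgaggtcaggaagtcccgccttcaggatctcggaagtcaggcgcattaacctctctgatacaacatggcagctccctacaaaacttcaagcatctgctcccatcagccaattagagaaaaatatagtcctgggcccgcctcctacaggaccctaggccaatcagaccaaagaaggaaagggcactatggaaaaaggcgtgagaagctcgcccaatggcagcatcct

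The ETS motif CCGGAAG, bound by GABP, was in 5 of the 43 member windows (11.6%; 6.91% of all windows). The site of oestrogen-related receptors, AAGGTCA, was in 3 (6.98%; 4.08% of all windows); it is the capital run in Ndufb4 outside the NRF1 matches, and stands in the opposite orientation as the first capital run in Ndufs5. In the windows shown no match overlapped another. Genes with an NRF1 match were thus among those that fell, those that were higher in VE than in wild type samples and those that passed no test.

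The comparison of VE with vehicle in ob/ob mice asks what the extract did in obese tissue. No Nduf gene passed limma's adjusted threshold, and only 5 of all 19572 clusters did (0.0255%), all higher under VE. At an unadjusted limma p under 0.05, 21 of 46 members differed, all of them higher. Over all clusters that share was 4.56%, made of 2.91% higher and 1.66% lower. In 21 of 46 members every VE sample was above every ob/ob vehicle sample (45.7%), and in 0 was every one below. Over all clusters these shares were 5.77% and 6.79%, and among the 3815 clusters of like level 287 (7.52%) had all VE samples higher. The mean difference was above 0 in 41 of 46 members and its median was 0.62, against -0.02 over all clusters and 0.05 over those of like level. These counts describe the list and carry no test of it.

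The 5 members with the smallest p were Ndufs8, Ndufc1, Ndufb9, Ndufs7 and Ndufa12. Ndufs8 and Ndufs7 are catalytic core subunits of the Q module that carry the iron-sulfur clusters next to ubiquinone. Ndufs8 read 8.41, 8.96 and 9.21 in wild type, 9.58, 9.11 and 9.02 in ob/ob vehicle and 11.50, 10.97 and 11.21 in ob/ob VE samples. The vehicle groups overlapped, and the VE samples stood above both. The VE minus ob/ob vehicle difference was 1.99 ± 0.28 (SE, n = 3 per group; 95% interval 1.36 to 2.62), a 3.97-fold higher level with a limma adjusted p of 0.0589.

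Ndufs7 had the same order with a wide spread in one group. It read 7.91, 8.64 and 8.98 in wild type, 10.33, 8.14 and 9.09 in ob/ob vehicle and 11.43, 11.44 and 12.08 in ob/ob VE samples. The first ob/ob vehicle sample was above every wild type sample and still below every VE sample. Its VE minus ob/ob vehicle difference was 2.46 ± 0.50 (SE; 95% interval 1.34 to 3.59; limma adjusted p = 0.320).

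Ndufc1, a small subunit of the proximal membrane arm, read 11.78, 11.46 and 10.53 in wild type, 11.71, 10.92 and 11.14 in ob/ob vehicle and 13.76, 13.33 and 13.48 in ob/ob VE samples. The means of the vehicle groups were both 11.26, and the VE samples were higher than each of the other 6. Its VE minus ob/ob vehicle difference was 2.27 ± 0.35 (SE; 95% interval 1.5 to 3.04; limma adjusted p = 0.0804). Ndufb9, a subunit of the distal membrane arm, read 11.58, 11.76 and 11.70 in wild type, 12.53, 10.87 and 10.93 in ob/ob vehicle and 13.71, 13.98 and 14.09 in ob/ob VE samples. The difference was 2.48 ± 0.40 (SE; 95% interval 1.59 to 3.37; limma adjusted p = 0.107). Ndufa12, an accessory subunit of the N module, read 13.20, 12.97 and 13.17 in wild type, 13.16, 12.61 and 12.74 in ob/ob vehicle and 13.70, 13.90 and 14.09 in ob/ob VE samples. Its difference was smaller, 1.06 ± 0.23 (SE; 95% interval 0.54 to 1.58; limma adjusted p = 0.377). None of the 5 passed the threshold, and each of their intervals lies above 0.

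Under other fits some of them passed. Ndufs8 and Ndufc1 passed when only these groups were fitted (limma adjusted p = 0.0303 and 0.0197) and without wild type replicate 3, which changes only the shared estimate of the spread. Ndufb9 and Ndufs7 passed without the first ob/ob vehicle sample (limma adjusted p = 0.0104 and 0.0482). Over all alternatives the limma adjusted p ran from 0.0061 to 0.429 for Ndufs8, from 0.0061 to 0.538 for Ndufc1, from 0.00745 to 0.622 for Ndufb9 and from 0.0356 to 1 for Ndufs7. The lowest differences under VE were small: Ndufb10 differed by -0.23 ± 0.30 (SE) and Ndufb8 by -0.22 ± 0.24 (SE), and neither was called.

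**Figure D3:**
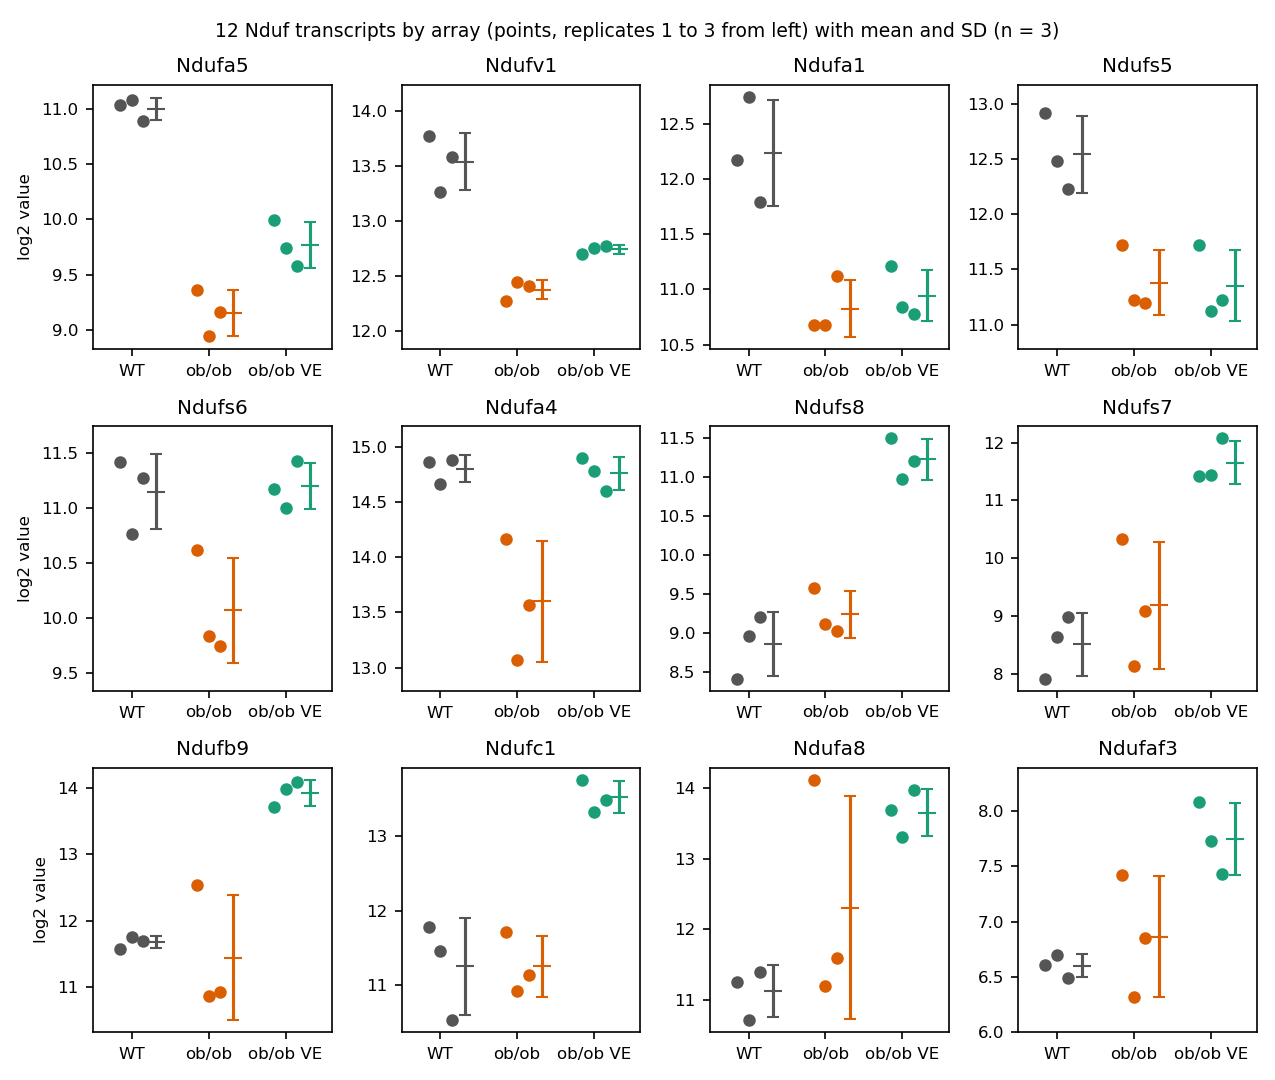
Log2 signal of selected Nduf genes in each sample (points) with the group mean (bar), for wild type vehicle, ob/ob vehicle and ob/ob VE. Ndufa5 and Ndufv1 are highest in wild type, while Ndufs8, Ndufs7, Ndufc1 and Ndufb9 are highest in VE samples.

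One array weighs on both comparisons that use ob/ob vehicle samples. Replicate 1 of that group was the highest of its 3 in 36 of 46 members, against 36.3% of all clusters, and replicate 2 was the lowest in 32. The median of the members per array was 10.72, 9.99 and 10.24 in ob/ob vehicle, 10.48, 10.66 and 10.53 in wild type and 11.26, 10.99 and 11.14 in ob/ob VE samples. The middle of the per-gene SDs was 0.48 in ob/ob vehicle, 0.36 in wild type and 0.21 in VE samples, where all clusters had 0.30, 0.41 and 0.26. Ndufa8, an intermembrane-space subunit, had the widest spread: 14.12, 11.20 and 11.60 in ob/ob vehicle (SD 1.58, n = 3), beside 11.26, 10.71 and 11.40 in wild type and 13.69, 13.30 and 13.97 under VE. Without replicate 1, every VE sample was above the other two ob/ob vehicle samples in 35 of 46 members (12.1% of all clusters), and every remaining ob/ob vehicle sample was below every wild type sample in 23 (18.5%). Without replicate 2 the remaining ob/ob vehicle samples were above every wild type sample in 8 members (18.9% of all clusters) and below in 10 (16.4%). In that setting 20 means were above 0 where 16 were with all arrays, and the members' median stayed below 0 (-0.12). Every VE sample was then above the remaining ob/ob vehicle samples in 22 members (9.46% of all clusters).

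Against wild type, ob/ob VE samples differed in both directions. With limma, 13 of 46 Nduf genes were higher and 5 lower in VE samples at an adjusted p under 0.05, against 12.4% higher and 7.58% lower over all clusters. As shares of the members these are 28.3% and 10.9%, and among the 3815 clusters of like level 24.4% were called higher and 6.97% lower. All 3 VE samples were above all 3 wild type samples in 20 members (43.5%; 19.5% of all clusters and 36.0% of those of like level) and below in 8 (17.4%; 17.7% and 13.4%). The shares of members that were higher thus lay nearer to those of the clusters of like level than to those of all clusters. Clusters of like level span the lower to the upper quartile of the members' mean levels (8.83 to 11.95). Members dimmer or brighter than that have no matched clusters here. The median difference was 0.38, against -0.07 over all clusters and 0.36 over the 3815 clusters of like level. After quantile normalization the calls were 7 higher and 7 lower, and the median was 0.10. Ndufs8, Ndufc1, Ndufs7, Ndufb9, Ndufb4, Ndufa10, Ndufb6, Ndufa5 and Ndufa1 passed whichever single array was left out. Leaving out any 1 of the 3 VE samples left 10 calls in all, and leaving out wild type replicates 1 and 2 left 6, of which 5 were higher.

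The higher genes were led by the subunits that were also highest under VE in the comparison above, which shares the VE arrays. Ndufs8 was 2.37 ± 0.28 (SE) higher in VE than in wild type samples, a 5.16-fold difference (limma adjusted p = 0.000401), and Ndufs7 was 3.14 ± 0.50 higher, an 8.82-fold difference (limma adjusted p = 0.00230). Ndufc1 was 2.27 ± 0.35 higher (limma adjusted p = 0.00174) and Ndufb9 2.25 ± 0.40 higher (limma adjusted p = 0.00395). Ndufb4, of the distal membrane arm, read 12.90, 13.17 and 13.20 in wild type, 13.84, 12.99 and 13.25 in ob/ob vehicle and 14.51, 14.34 and 14.29 in ob/ob VE samples, 1.29 ± 0.26 (SE) above wild type (limma adjusted p = 0.00703). Its near-identical copy Ndufb4b was also called, and the array may not tell these copies apart. The other 7 called higher were Ndufa8, Ndufa10, Ndufa11, Ndufa12, Ndufa4l2, Ndufaf3 and Ndufb6, of which Ndufa12 lost the call in 14 and Ndufa11 in 12 of 19 alternatives.

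The 5 genes lower in VE than in wild type samples were Ndufa5, Ndufa1, Ndufs5, Ndufv1 and Ndufb10. Ndufa5 was -1.23 ± 0.22 (SE) on the log2 scale (limma adjusted p = 0.00398), Ndufa1 -1.29 ± 0.29 (limma adjusted p = 0.0116), Ndufs5 -1.19 ± 0.28 (limma adjusted p = 0.0144) and Ndufv1 -0.79 ± 0.21 (limma adjusted p = 0.0267). The first 4 of these were lower in ob/ob vehicle samples too, against the same wild type arrays. Ndufb10, a membrane-arm subunit, read 9.16, 8.42 and 8.92 in wild type, 8.69, 7.80 and 7.78 in ob/ob vehicle and 8, 7.85 and 7.72 in ob/ob VE samples, a VE minus wild type difference of -0.98 ± 0.30 (limma adjusted p = 0.0479). That call was lost in 11 of 19 alternatives, among them a trended prior, array weights and median centring, with an adjusted p from 0.0262 to 0.134. Ndufs8 and Ndufv1 lie on the same chromosome with 8 protein-coding genes between them, and their VE minus wild type differences had opposite signs.

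A moderated F test over the 3 groups called 15 of 46 members (32.6%), against 15.7% of all clusters. By symbol class these were 5 of 10 core, 10 of 28 accessory and 0 of 8 assembly genes. That count was 8, 8 and 9 when each VE sample was left out in turn and 25 without ob/ob vehicle replicate 1. The share called by the F test was not computed for clusters of like level. Against wild type, such clusters were called higher in 17.9% (ob/ob vehicle) and 24.4% (VE), where all clusters had 9.02% and 12.4%. They were called lower in 5.85% and 6.97%, where all clusters had 5.05% and 7.58%. In VE against ob/ob vehicle samples 0.0524% of such clusters and 0.0255% of all clusters were called higher. The part of brightness in the excess of the F test over all clusters was not tested.

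The classes had different values. The median ob/ob vehicle minus wild type difference was -0.39 in core, -0.28 in accessory and 0.18 in assembly genes. For VE minus ob/ob vehicle it was 0.92, 0.73 and 0.10, and for VE minus wild type 0.31, 0.47 and 0.24. Every VE sample was above every ob/ob vehicle sample in 5 of 10 core, 15 of 28 accessory and 1 of 8 assembly genes. With 1 array left out, the ob/ob vehicle minus wild type median of the core class ran from -0.68 to -0.22. That of the assembly class changed sign, to -0.08 without ob/ob vehicle replicate 3 and -0.06 without wild type replicate 1, as did its VE minus ob/ob vehicle median without ob/ob vehicle replicate 2 (-0.02). The difference between classes was not tested, since their genes share the same 9 arrays. Assembly genes were also dimmer: the median of their wild type means was 6.965, against 10.81 in core and 10.93 in accessory genes. Over the 46 members the VE minus ob/ob vehicle difference rose with mean level (Spearman correlation 0.42, and 0.23 over all clusters). The levels of the classes overlapped in part (mean level 5.69 in the accessory gene Ndufa7, 10.64 in the assembly gene Ndufaf4). The part of signal level in the differences between classes was not tested. After quantile normalization the core median of VE minus wild type changed sign, to -0.10.

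Among the core symbols, 6 encode catalytic subunits, and all 6 had a higher mean under VE than under vehicle in ob/ob mice (median difference 1.02). Beside Ndufs7, Ndufs8 and Ndufv1 these are Ndufs1, Ndufs3 and Ndufv2. Ndufv2, which holds an iron-sulfur cluster of the N module, read 11.82, 11.60 and 10.87 in wild type, 11.73, 10.57 and 11.38 in ob/ob vehicle and 12.57, 12.14 and 12.06 in ob/ob VE samples. Ndufs3, of the Q module, read 13.63, 12.78 and 13.80 in wild type, 13.55, 12.27 and 12.46 in ob/ob vehicle and 13.87, 13.92 and 13.50 in ob/ob VE samples. Ndufs1, which holds several iron-sulfur clusters, had group means within 0.22 of each other: 10.48, 10.60 and 10.32 in wild type, 10.40, 10.04 and 10.30 in ob/ob vehicle and 10.62, 10.14 and 10.22 in ob/ob VE samples. None of these 3 passed the limma threshold in any comparison.

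By module, the VE minus ob/ob vehicle median was 1.5 over the 4 measured Q-module genes, 0.86 over 10 of the proximal membrane arm, 0.74 over 10 of the N module and 0.61 over 10 of the distal membrane arm. All 10 N-module genes were below wild type in the ob/ob vehicle means, and all 10 were above ob/ob vehicle in the VE means. The calls in ob/ob vehicle against wild type were spread over the modules: 2 in the N module, 1 in the Q module, 2 in the proximal and 1 in the distal membrane arm, and Ndufa4.

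Among the 8 Ndufaf assembly factors, 1 passed a test. Ndufaf3 read 6.61, 6.70 and 6.49 in wild type, 7.42, 6.32 and 6.85 in ob/ob vehicle and 8.08, 7.73 and 7.43 in ob/ob VE samples, and was 1.15 ± 0.30 (SE) higher in VE than in wild type samples (limma adjusted p = 0.0245). Its partner Ndufaf4 read 10.48, 10.19 and 10.17 in wild type, 10.93, 10.98 and 10.68 in ob/ob vehicle and 10.79, 11.09 and 10.44 in ob/ob VE samples. In Ndufaf4 the VE samples straddled those of the ob/ob vehicle group. Ndufaf1, a membrane-arm factor, read 6.99, 7.89 and 8.30 in wild type, 7.91, 7.26 and 8.74 in ob/ob vehicle and 8.01, 7.73 and 8.46 in ob/ob VE samples, with all groups overlapping. Ndufaf5, which modifies Ndufs7, had group means of 6.52, 6.64 and 6.66 in the same order, and the VE minus ob/ob vehicle differences of Ndufaf2, Ndufaf6, Ndufaf7 and Ndufaf8 were -0.02, 0.11, 0.19 and 0.33. Of 14 assembly factors with other names, 13 were measured. In 6 of the 13 (46.2%) every VE sample was above every ob/ob vehicle sample, against 5.77% of all clusters. Their mean difference there was above 0 in 10 and below 0 in 3, with a median of 0.30. None of the 13 passed in ob/ob vehicle against wild type or in VE against ob/ob vehicle. In VE against wild type samples 3 were higher (23.1%) and 1 lower (7.69%), against 12.4% and 7.58% of all clusters. Tmem70 (1.30 higher) and Tmem126b (1.25 higher) were among the first, and Tmem186 was the one lower.

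The other respiratory complexes had values like those of the Nduf genes under VE. Of 43 genes of complexes II to V, 39 had a higher mean in VE than in ob/ob vehicle samples (median 0.75), and in 20 (46.5%) every VE sample was above every ob/ob vehicle sample. None was called, and the closest were the ATP synthase genes Atp5g1 (2.71 ± 0.35 SE, limma adjusted p = 0.0532) and Atp5d (2.47 ± 0.35 SE, limma adjusted p = 0.0589). The values under VE therefore give no ground to call the shift particular to complex I. Against wild type, 3 of these 43 (6.98%) were called lower in ob/ob vehicle samples and 0 higher. Over all clusters 5.05% were lower and 9.02% higher, and over the 3815 clusters at the Nduf members' middle levels 5.85% and 17.9%. Among the 3 were Cox4i1 of cytochrome c oxidase (-1.55) and Atp5h of ATP synthase (-1.51). The median difference over the 43 genes was 0.09. In VE against wild type samples 16 (37.2%) were higher and 0 lower at the limma threshold, with 37 means above 0 and 6 below. Over all clusters 12.4% were higher and 7.58% lower, and over the same 3815 clusters 24.4% and 6.97%.

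**Figure D4:**
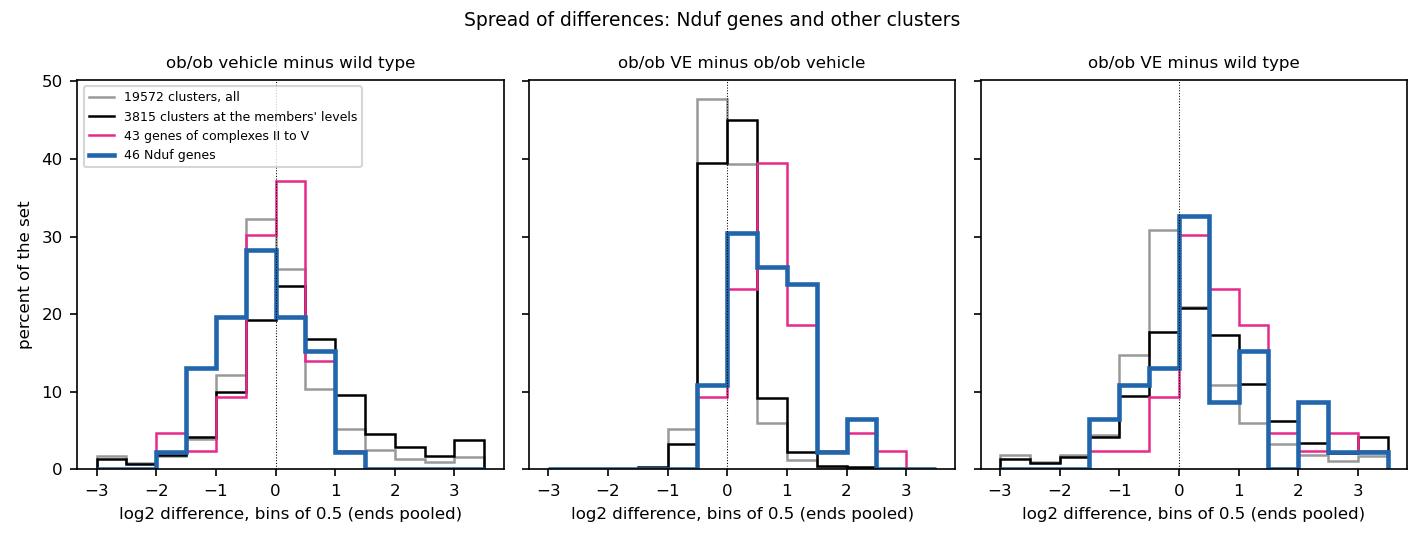
Share of genes (y axis, percent) by log2 difference (x axis) in each comparison, for all clusters, clusters of the members' middle levels, the 43 genes of complexes II to V and the 46 Nduf genes. For VE against ob/ob vehicle the Nduf genes and those of the other complexes lie to the right of the other clusters, with medians of 0.62 and 0.75 against -0.02 over all clusters.

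Of 12 regulators of mitochondrial gene expression 11 were measured. Tfam, which packages and transcribes mitochondrial DNA, fell by 1.01 on the log2 scale in ob/ob vehicle against wild type samples (limma adjusted p = 0.0334), and Gabpb1, a subunit of the ETS-type factor GABP, rose by 0.82 (limma adjusted p = 0.0257). None of the 11 was called in VE against ob/ob vehicle samples, where their median difference was 0.00. Tfb2m, a transcription factor of mitochondrial DNA, was 1.46 higher in VE than in wild type samples (limma adjusted p = 0.0141).

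Markers of other cell types differed between genotypes. Against wild type, all 10 measured macrophage markers were higher in vehicle-treated ob/ob mice and 10 of 11 epithelial markers were lower, with 2 of 5 smooth muscle markers lower and 0 of 5 endothelial markers called. All 10 adipocyte markers had a higher mean in ob/ob vehicle than in lean samples (median difference 0.58, 1 called) and in VE than in lean samples (median 0.77, 2 called). In VE against ob/ob vehicle samples, limma called 0 of the 10 adipocyte, 10 macrophage, 11 epithelial, 8 brown or beige, 5 endothelial and 5 smooth muscle markers. Their median differences there were 0.10, -0.21, -0.12, 0.06, -0.17 and -0.08 in that order, beside 0.62 for the Nduf genes. The part of cell makeup in the differences between obese and wild type samples was not tested.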

How the data were processed

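The deposited values are log2 signals. Per the series' design text, 100 ng of RNA per sample was hybridized for 16 hours to Clariom S arrays. The authors made the values with SST-RMA in the Transcriptome Analysis Console (version 4.0.2 in that text, 4 in the submitters' processing notes). The summarisation can change the size of differences, so fold values hold on its scale only. The number of arrays, 3 per group, limits the precision. Of 22206 clusters, 19572 carry exactly 1 symbol in the platform annotation and were tested; 2634 with none or several were left out. Group means of all 9 arrays were fitted with limma 3.58.1 (R 4.3.3; prior degrees of freedom 4.02), with Benjamini-Hochberg adjustment within each comparison and a threshold of 0.05; errors are the fit's SE. The script was tested on simulated data. The members and lists were chosen with earlier results of these data known. All members called in a comparison were named up to 10; otherwise the 5 highest and 5 lowest by moderated statistic; where fewer than 5 were called, the 5 of smallest p. Catalytic core and assembly genes were named as well. Alternatives covered scaling, prior variance, filter, arrays and the replicate number.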

Additional observations from a re-analysis of the deposited data

How the results depend on the processing

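Of the single genes called in any fit, 0 had a called difference that changed sign under an alternative; what changed was the side of the threshold. For ob/ob vehicle against wild type (7 calls), the count was 4 with only these 2 groups fitted, 11 after quantile normalization, 14 at the submitters' threshold (unadjusted p under 0.05 and fold over 1.1; 3 higher and 11 lower), 3 to 10 when each array was left out, and 2 without wild type replicates 1 and 2 (a setting added once the data had been seen). For VE against ob/ob vehicle (0 calls), it was 2 with only these 2 groups, 1 with a robust prior, 5 with array weights, 21 at the submitters' threshold, 0 to 2 when each array was left out and 2 without wild type replicates 1 and 2. For VE against wild type (18 calls), it was 10 to 18 when each array was left out and 6 without wild type replicates 1 and 2. The moderated F test (15 calls) gave 23 with array weights and 8 to 25 when each array was left out. The members' median for ob/ob vehicle against wild type ranged from -0.43 to -0.12 over the left-out arrays, that for VE against ob/ob vehicle from 0.45 to 0.87, and that for VE against wild type was 0.10 after quantile normalization, where the core class reversed to -0.10. Replicate numbers did not pair the samples (same-numbered arrays of different groups correlated from -0.06 to 0.18 in their deviations); with the replicate block the counts were 7, 0 and 17. Fits without an array hold fewer samples; other causes were not tested. Genes had 1 cluster each, so a mean over clusters gave the same values.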
